A study of Homo sapiens with 6 samples.

Results

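The genes described here are 33 genes of cholesterol synthesis and uptake, found by their symbols among the 31831 genes of the count table. By role 19 of them are synthesis enzymes, 8 of the mevalonate arm and 11 of the squalene and sterol arm. The 8 include GGPS1, which makes geranylgeranyl diphosphate, a side product and not a step to cholesterol. Further members are 5 genes of the SREBP machinery, 5 genes of uptake control, trafficking and storage, and 4 genes of efflux and its nuclear receptors. The mRNA of all 33 genes was sequenced from HK-2 cells, an immortalized line of human kidney proximal tubule epithelium. All cells were kept in medium with 30 mM glucose for 72 h. The HG-NC group carried an empty control vector and the HG-OE group a construct that overexpresses hnRNP-F, an RNA-binding protein, with 3 libraries in each group. The labels call the control a plasmid, whereas the study's methods call it a control lentivirus. The promoter of the construct and whether clones were picked are not given in the sources used here. The libraries are named biological replicates grown in parallel wells, so the p-values measure the spread between such wells.

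Cholesterol is made in the endoplasmic reticulum from acetyl-CoA. The mevalonate arm yields isoprenoid diphosphates, which also feed prenylated proteins, dolichol and ubiquinone, and the squalene and sterol arm closes the ring system and trims it to cholesterol. Transcription of most of these enzymes is driven by SREBP-2 (gene SREBF2) and, for lipids more broadly, by SREBP-1 (gene SREBF1), which SCAP escorts out of the endoplasmic reticulum when sterol is low and which the INSIG proteins hold back when sterol is high. Oxysterols activate the liver X receptors (genes NR1H2 and NR1H3), which drive cholesterol export. Proximal tubule cells take up filtered lipids and proteins, and lipid handling in the tubule has been studied in diabetic kidney disease.

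The libraries held 25507595 to 29444841 counted read pairs, and 17142 genes passed the filter on low counts, 32 of the 33 members among them. HNRNPF, the overexpressed gene, was at 304, 319 and 311 CPM (counts scaled to library size by the TMM method) in HG-NC replicates 1 to 3 and at 430.5, 452 and 423 CPM in HG-OE, a 1.40-fold difference (log2 fold change 0.48, standard error [SE] 0.0388, adjusted p = 2.80e-07, edgeR quasi-likelihood test). The study's methods give the same gene ID for the construct in these human cells and in mouse podocytes, and do not state its species. How much of the construct's RNA is counted under the human gene was not tested, so 1.40-fold need not be the degree of overexpression. Of 15 proximal tubule markers listed, 10 reached 10 counts in each library except HG-OE replicate 3, where 12 did. PAX8, CDH6 and HAVCR1 had 434 to 18291 counts in every library, whereas CUBN, AQP1 and SLC34A1 had 0 to 23. The transporter genes SLC22A6 and SLC22A8 had 0 counts in all libraries, which allows up to 3 counts per library. The uptake receptor gene LRP2 was at 0 except for 17 counts in HG-OE replicate 3. This library stood apart in other ways. In the study's summary of reads, HG-OE replicate 3 had the lowest share of mapped reads among the high-glucose libraries. Of its mapped reads, the share mapped uniquely was also the lowest among them. All 14 genes of a liver marker list reached 10 counts in it, compared with 3 and 4 in the other HG-OE libraries and 4, 4 and 10 in HG-NC, and ALB had 4359 counts there against 0 to 78 elsewhere. The summed CPM of the liver list was 268 to 279 in HG-NC, 463 and 465 in HG-OE replicates 1 and 2 and 830.5 in HG-OE replicate 3. Outside this library the sum was nearly all SERPINA1, which was at 258 to 275 CPM in HG-NC and at 457, 458 and 395 CPM in HG-OE, whereas the other 13 genes summed to between 3.62 and 12.5 CPM for the HG-NC libraries, 6.62 and 6.49 CPM for HG-OE replicates 1 and 2 and 436 CPM for replicate 3. In addition, 9 of 10 squamous markers reached 10 counts in that library against 2 or 3 in the others. The members that passed the test are therefore given with and without HG-OE replicate 3. This library was set apart after its values were seen. The p-values without it rest on HG-OE replicates 1 and 2 alone. Such a p-value can be smaller although the difference is smaller too, as for HMGCS1 below, and is to be read with that in mind.

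Of the 32 members tested, 15 were higher in HG-OE and 4 were lower (adjusted p under 0.05), and 13 did not pass. Among all genes tested, 25.9% were higher and 25.9% were lower, or 51.8% in either direction, beside 46.9% and 12.5% of the members. No member reached a 2-fold change, whereas 5.82% of all genes did so at an adjusted p under 0.05. The median log2 fold change of the members was 0.14, with a range from -0.61 (INSIG1) to 0.88 (HMGCS1), and that of all genes was 0.011. The 3 HG-OE libraries lay above the 3 HG-NC libraries without overlap for 15 members (46.9%, against 29.6% of all genes) and below them for 5 (15.6%, against 29.4%). Without HG-OE replicate 3, 15 members were higher and 5 lower, beside 26.7% and 27.2% of all genes, and the members' median was 0.13. Fewer cells that express a gene and less RNA of it per cell cannot be told apart in such libraries.

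**Figure D1:**
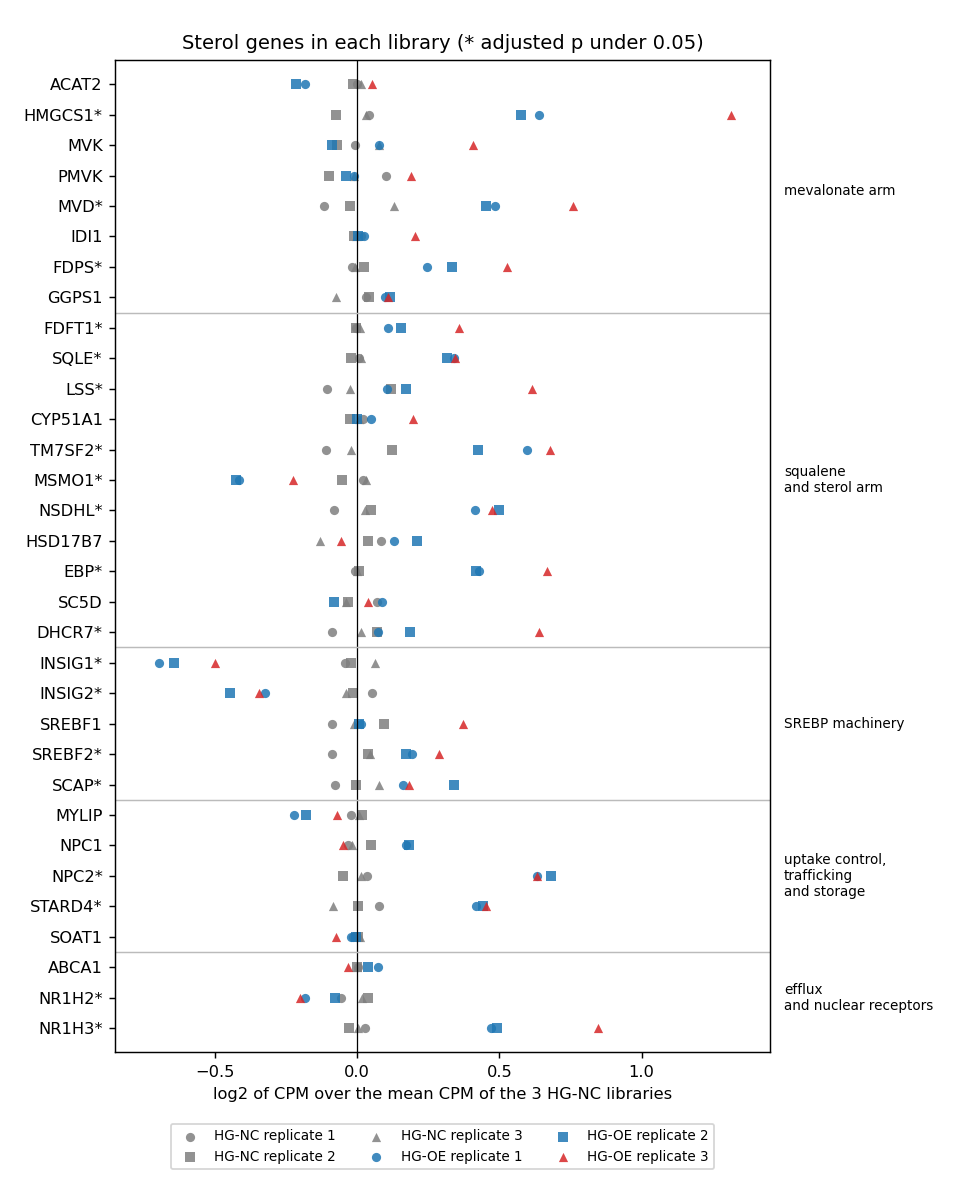
Each row is a member, ordered by role, and each point is a library; the horizontal axis is the log2 ratio of its CPM to the mean CPM of the 3 HG-NC libraries, and an asterisk marks an adjusted p under 0.05. HMGCS1 lies farthest to the right and INSIG1 farthest to the left, and HG-OE replicate 3 lies beyond the other HG-OE libraries for many of the enzymes.

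The promoters of 29 of the 33 members were found in RefSeq (GRCh38.p14), as 250 bases before and 50 bases after the start of the gene, and are shown here since many of these genes are known SREBP targets. SREBP binds sterol regulatory elements, often beside NF-Y, which binds CCAAT, and both SREBP and other factors bind the E-box CACGTG. The form TCACNCCAC of the sterol regulatory element was found in the promoter of 1 member, SREBF2, and in 1.15% of 27305 promoters. CCAAT was found in 18 of the 29 members (62.1%) and in 35.7% of all promoters, and CACGTG in 5 members (17.2%) and in 7.43% of all promoters. Both strands were searched, so that CCAAT can read ATTGG, and a stretch that matches more than 1 motif was counted under each. Of the 18 members with CCAAT, 11 were higher in HG-OE, 2 were lower and 5 did not pass the test, and of the 11 without it, 2 were higher, 2 were lower and 7 did not pass, beside 25.9% of all genes in each direction. The 25.9% covers genes with and without CCAAT, and calls were not counted over all genes that hold it. No promoter was found for ACAT2, ABCG1, SQLE and FDFT1, of which SQLE and FDFT1 were higher. Whether the motif goes with the change was not tested. A match of letters does not show binding, and its absence says only that these letters are not in this window. The stretches below hold the motif in capitals for the SREBP-2 gene itself, for HMGCS1 and INSIG1, which had the highest and lowest log2 fold change of the 32 tested, and for other members described below, with 1 match shown per gene. They lie at chr22:41832962-41832991 (SREBF2, + strand), chr7:155297811-155297840 (INSIG1, + strand), chr5:43313550-43313579 (HMGCS1, - strand), chr1:155308732-155308761 (FDPS, + strand), chr4:165327581-165327610 (MSMO1, + strand), chrX:48521726-48521755 (EBP, + strand), chr14:74493609-74493638 (NPC2, - strand) and chr5:111512679-111512708 (STARD4, - strand).
SREBF2: tgacgcgccaTCACCCCACgcaccgcttcg
INSIG1: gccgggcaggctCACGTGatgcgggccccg
HMGCS1: agtttccttttgATTGGtagaagccggact
FDPS: gacggccagcagCCAATcagcgcggctcat
MSMO1: caactgcacagaCCAATcaccgcgccgaga
EBP: aagagagtgtctATTGGttgggagcggcac
NPC2: agaaggtgtctgATTGGctaggaatgctcc
STARD4: atttatcggccaCCAATcagccctccacac

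In the mevalonate arm, 3 of 8 enzymes were higher in HG-OE and none was lower, beside 25.9% of all genes in each direction. The median log2 fold change was 0.13. HMGCS1 (ENSG00000112972.15), which makes HMG-CoA and lies on chromosome 5 from 43287470 to 43313512 of GRCh38, had the largest rise of the 32 genes tested when all libraries were used. It was at 28.6, 26.4 and 28.4 CPM in HG-NC replicates 1 to 3 and at 43.3, 41.4 and 69.1 CPM in HG-OE. All HG-OE libraries lay above all HG-NC libraries, and HG-OE replicate 3 lay well above the other two. The means were 27.8 ± 1.2 and 51.3 ± 15.4 CPM (SD, n = 3), a 1.85-fold rise (log2 fold change 0.88, SE 0.148, adjusted p = 2.13e-04). Without HG-OE replicate 3 the log2 fold change was 0.61 (adjusted p = 8.14e-12), below that of NPC2, 0.66. HMGCS1 shares 37.7% of its exonic bases with a gene on the opposite strand that had a mean of 17.3 counts, against 1120.2 for HMGCS1.

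MVD, the decarboxylase that yields isopentenyl diphosphate, was at 28.5, 30.3 and 33.8 CPM in HG-NC and at 43.2, 42.2 and 52.2 CPM in HG-OE. The groups did not overlap, and MVD rose 1.48-fold (log2 fold change 0.57, SE 0.0834, adjusted p = 6.65e-05). FDPS, which joins the isoprene units into farnesyl diphosphate, was at 135, 139 and 136 CPM in HG-NC and at 162, 172 and 197 CPM in HG-OE. Again the HG-OE libraries were all higher, with a 1.30-fold rise (log2 fold change 0.37, SE 0.0595, adjusted p = 1.33e-04). Without HG-OE replicate 3 the log2 fold changes of MVD and FDPS were 0.47 and 0.29, and both passed the test.

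The other five enzymes of this arm did not pass. The kinases MVK and PMVK had log2 fold changes of 0.14 and 0.051, and without HG-OE replicate 3 these were -0.0055 and -0.023. IDI1, which isomerizes isopentenyl diphosphate, had a log2 fold change of 0.078 (adjusted p = 0.289). GGPS1, which makes the geranylgeranyl diphosphate used for protein prenylation, averaged 60.0 ± 2.57 CPM over the HG-NC libraries and 64.7 ± 0.397 CPM over those of HG-OE (SD, n = 3), with no overlap (adjusted p = 0.0655). GGPS1 shares 37.3% of its exonic bases with another annotated gene on the same strand, which had a mean of 1820.5 counts, so its counts are uncertain. ACAT2, the thiolase at the entry of the pathway, was at 108, 107 and 109 CPM in HG-NC and at 95.0, 93.0 and 112 CPM in HG-OE. Its HG-OE replicates 1 and 2 lay below the HG-NC libraries and replicate 3 above them. With all libraries the adjusted p was 0.128, and without HG-OE replicate 3 ACAT2 was lower (log2 fold change -0.20, SE 0.0442, adjusted p = 1.38e-04). The genes around ACAT2 on the chromosome, described below, had a median of -0.34. Relative to them its log2 fold change with all libraries was 0.23. Its exons overlap those of TCP1 on the opposite strand for 17.2% of their bases, and whether strand was used in the counting is not given in the sources used here.

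In the squalene and sterol arm, 7 of 11 enzymes were higher and 1 was lower, beside 25.9% of all genes in each direction. The median log2 fold change was 0.31. SQLE, the squalene epoxidase that introduces the oxygen of sterols and is a rate-limiting step, was at 46.2, 45.3 and 46.4 CPM in HG-NC and at 58.2, 57.2 and 58.4 CPM in HG-OE. The libraries of each group lay close together and the groups far apart, with a 1.26-fold rise (log2 fold change 0.33, SE 0.0458, adjusted p = 3.67e-05). The log2 fold change was also 0.33 without HG-OE replicate 3. SQLE did not pass a test against a fold of 1.2 (adjusted p = 0.0789, glmTreat). FDFT1, the squalene synthase that commits farnesyl diphosphate to sterols, was at 102, 102 and 103 CPM in HG-NC and at 110.4, 114 and 131 CPM in HG-OE. It rose 1.16-fold (log2 fold change 0.21, SE 0.0564, adjusted p = 0.00638), and the value was 0.13 without HG-OE replicate 3 (adjusted p = 0.00812).

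EBP, the sterol isomerase, was at 73.9, 74.6 and 74.2 CPM in HG-NC and at 99.8, 99.1 and 118 CPM in HG-OE. The HG-NC libraries differed by less than 1 CPM and every HG-OE library was higher, a 1.42-fold rise (log2 fold change 0.51, SE 0.0600, adjusted p = 9.80e-06, and 0.42 without HG-OE replicate 3). EBP shares 36.4% of its exonic bases with a gene model on the same strand that had a mean of 28.5 counts, against 2533.3 for EBP. NSDHL, the dehydrogenase that helps to remove the methyl groups of sterols, was at 28.7, 31.4 and 30.9 CPM in HG-NC and at 40.4, 42.9 and 42.1 CPM in HG-OE. It rose 1.38-fold (log2 fold change 0.46, SE 0.0555, adjusted p = 1.18e-05), and the value was also 0.46 without HG-OE replicate 3. TM7SF2, a sterol reductase, was at 5.19, 6.10 and 5.51 CPM in HG-NC and at 8.48, 7.52 and 8.95 CPM in HG-OE. It rose 1.48-fold from a low level (log2 fold change 0.57, SE 0.118, adjusted p = 0.00108, and 0.51 without HG-OE replicate 3).

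MSMO1 was the enzyme that fell. This oxidase, which starts the removal of the same methyl groups, was at 93.4, 88.8 and 94.2 CPM in HG-NC and at 69.0, 68.5 and 78.7 CPM in HG-OE. Every HG-OE library lay below every HG-NC library, and MSMO1 was 1.28-fold lower (log2 fold change -0.35, SE 0.0552, adjusted p = 1.12e-04, and -0.42 without HG-OE replicate 3). Relative to the genes around it on the chromosome, described below, its log2 fold change was -0.056, and MSMO1 did not pass a test against a fold of 1.2.

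For LSS and DHCR7 the size of the rise depended on HG-OE replicate 3. LSS, the cyclase that closes the sterol rings, was at 29.5, 34.5 and 31.2 CPM in HG-NC and at 34.1, 35.7 and 48.6 CPM in HG-OE, and the groups overlapped. The log2 fold change of LSS was 0.31 (SE 0.110, adjusted p = 0.0282), and 0.13 without this replicate (adjusted p = 0.0819). It also did not pass without HG-NC replicate 1 or without HG-NC replicate 3. DHCR7, the reductase of the final step of one branch, was at 54.1, 60.3 and 58.0 CPM in HG-NC and at 60.4, 65.3 and 89.6 CPM in HG-OE. The lowest HG-OE value was next to the highest HG-NC value. The log2 fold change of DHCR7 was 0.32 (SE 0.110, adjusted p = 0.0253) and 0.13 without HG-OE replicate 3 (adjusted p = 0.0399), and with any of the 3 HG-NC libraries left out it did not pass. CYP51A1, the lanosterol demethylase, which shares 68.2% of its exonic bases with a same-strand model with a mean of 0.2 counts, HSD17B7, a ketoreductase, and SC5D, a desaturase, had log2 fold changes of 0.084, 0.099 and 0.014 and adjusted p-values of 0.193, 0.475 and 0.871. HSD17B7 has a transcribed pseudogene with 42 to 71 counts per library, which can share its reads.

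**Figure D2:**
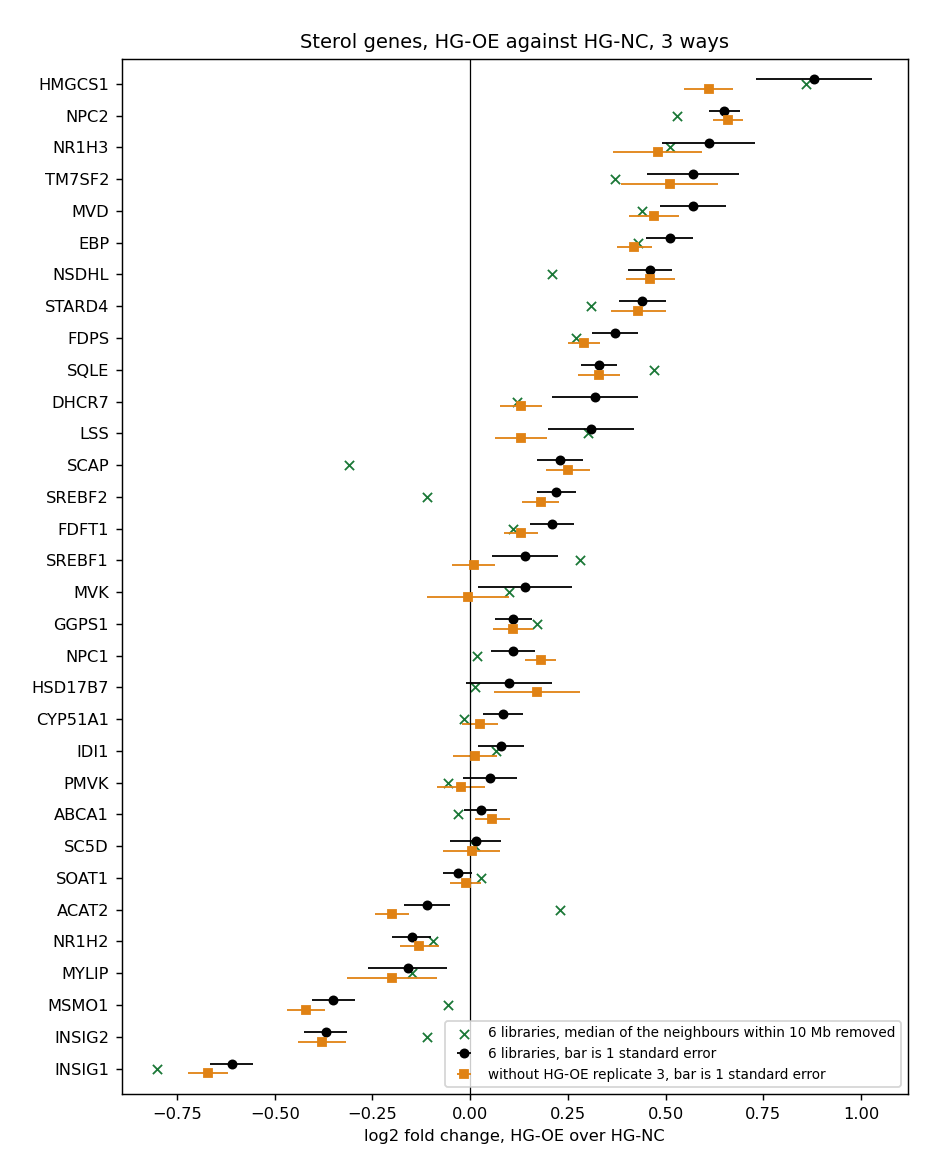
Log2 fold change of HG-OE over HG-NC for the 32 members tested (horizontal axis, rows sorted by it), with all 6 libraries (circles), without HG-OE replicate 3 (squares) and after the median of the neighbouring genes was removed (crosses); bars are 1 standard error of the edgeR fit. LSS and DHCR7 move to 0.13 without that library, and SCAP and SREBF2 move to -0.31 and -0.11 when their neighbours are removed.

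Of the 5 genes of the SREBP machinery, 2 were higher, 2 were lower and 1 did not pass, beside 25.9% of all genes in each direction. INSIG1 (ENSG00000186480.13, chromosome 7 from 155297776 to 155310235) retains the SCAP and SREBP complex in the endoplasmic reticulum and is itself an SREBP target. It was at 78.8, 79.9 and 84.9 CPM in HG-NC and at 50.1, 51.9 and 57.4 CPM in HG-OE. The groups were separated by more than 20 CPM, and INSIG1 was 1.53-fold lower (81.2 ± 3.26 against 53.1 ± 3.80 CPM, SD, n = 3; log2 fold change -0.61, SE 0.0555, adjusted p = 8.72e-07). This was the largest fall among the members, and it was -0.67 without HG-OE replicate 3. INSIG2, its paralogue on chromosome 2, was at 46.1, 44.0 and 43.2 CPM in HG-NC and at 35.5, 32.6 and 35.0 CPM in HG-OE. INSIG2 was 1.29-fold lower with no overlap (log2 fold change -0.37, SE 0.0545, adjusted p = 6.89e-05, and -0.38 without HG-OE replicate 3).

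SREBF2, the gene of SREBP-2, was at 73.0, 79.7 and 80.1 CPM in HG-NC and at 88.6, 87.3 and 94.7 CPM in HG-OE. It rose 1.16-fold (log2 fold change 0.22, SE 0.0498, adjusted p = 0.00241, and 0.18 without HG-OE replicate 3). SCAP was at 49.9, 52.5 and 55.5 CPM in HG-NC and at 58.9, 66.7 and 59.7 CPM in HG-OE, a 1.17-fold rise (log2 fold change 0.23, SE 0.0590, adjusted p = 0.00494, and 0.25 without HG-OE replicate 3). The groups did not overlap for SREBF2 or SCAP. SREBF1, the gene of SREBP-1, averaged 57.4 ± 3.61 CPM over the HG-NC libraries and 63.2 ± 9.52 CPM over those of HG-OE (SD, n = 3), with the highest value, 74.2 CPM, in HG-OE replicate 3. SREBF1 did not pass (log2 fold change 0.14, adjusted p = 0.188, and 0.0086 without that library). Thus the escort and the SREBP-2 gene were higher by small amounts, which turned negative relative to the surrounding genes. The pair of retention genes was lower. Relative to the surrounding genes, INSIG1 was at -0.80 and INSIG2 only at -0.11.

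Among the 5 genes of uptake control, trafficking and storage, 2 were higher and none was lower, beside 25.9% of all genes in each direction. NPC2 (ENSG00000119655.11, chromosome 14 from 74476192 to 74494177) hands cholesterol inside lysosomes to NPC1. It was at 189.9, 179 and 187 CPM in HG-NC and at 287, 297 and 287 CPM in HG-OE. The groups were more than 90 CPM apart, a 1.57-fold rise with the smallest adjusted p of the members (log2 fold change 0.65, SE 0.0388, adjusted p = 1.99e-08), and the log2 fold change was 0.66 without HG-OE replicate 3. NPC1, the membrane protein that NPC2 hands cholesterol to, was at 185, 196 and 187 CPM in HG-NC and at 213, 215 and 183 CPM in HG-OE. Here HG-OE replicate 3 lay below all HG-NC libraries, and NPC1 did not pass with all libraries (log2 fold change 0.11, adjusted p = 0.128), whereas it was higher without HG-OE replicate 3 (log2 fold change 0.18, SE 0.0390, adjusted p = 1.13e-04).

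STARD4, which carries sterol between membranes and is an SREBP target, was at 24.4, 23.2 and 21.8 CPM in HG-NC and at 30.9, 31.4 and 31.7 CPM in HG-OE. It rose 1.36-fold with no overlap (log2 fold change 0.44, SE 0.0607, adjusted p = 3.92e-05, and 0.43 without HG-OE replicate 3). SOAT1, which esterifies cholesterol for storage, averaged 174 ± 1.74 CPM over the HG-NC libraries and 170.0 ± 4.13 CPM over those of HG-OE (SD, n = 3), a log2 fold change of -0.032 (adjusted p = 0.510). MYLIP, a ubiquitin ligase that acts on lipoprotein receptors, was at 8.34, 8.57 and 8.52 CPM in HG-NC and at 7.27, 7.49 and 8.06 CPM in HG-OE. All HG-OE values of MYLIP were the lower ones, and the test was not passed (log2 fold change -0.16, adjusted p = 0.214).

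Of the 3 tested genes of efflux and its receptors, 1 was higher and 1 lower, beside 25.9% of all genes in each direction. NR1H3, the gene of liver X receptor alpha, was at 6.80, 6.54 and 6.69 CPM in HG-NC and at 9.24, 9.38 and 12.0 CPM in HG-OE. It rose 1.53-fold from a low level (log2 fold change 0.61, SE 0.119, adjusted p = 7.05e-04, and 0.48 without HG-OE replicate 3). NR1H2, the gene of liver X receptor beta, was at 68.8, 73.6 and 72.4 CPM in HG-NC and at 63.1, 67.8 and 62.3 CPM in HG-OE, a 1.11-fold fall (log2 fold change -0.15, SE 0.0488, adjusted p = 0.0174, and -0.13 without HG-OE replicate 3). The fall of NR1H2 did not pass without HG-NC replicate 2, without HG-NC replicate 3 or without HG-OE replicate 1. ABCA1, the exporter that liver X receptors drive, averaged 93.3 ± 0.122 CPM over the HG-NC libraries and 95.1 ± 3.56 CPM over those of HG-OE (SD, n = 3), or 0.027 on the log2 scale (SE 0.0418, adjusted p = 0.621). ABCG1, the other exporter, had 0, 0 and 2 counts in HG-NC and 1, 0 and 12 counts in HG-OE and was not tested, and 12 of its 15 counts were in HG-OE replicate 3.

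HG-OE replicate 3 lay above both other HG-OE libraries for 21 of the 32 members (65.6%) and for 15 of the 19 enzymes (78.9%), compared with 34.8% of all genes tested. The median ratio of this library to the mean of the other HG-OE libraries was 1.12 over the members, 1.16 over the enzymes and 0.990 over all genes. Relative to the HG-NC mean, the enzymes had a median log2 difference of 0.10, 0.17 and 0.36 in HG-OE replicates 1, 2 and 3. All 3 values were above those of the HG-NC libraries, which lay between -0.0089 and 0.0071. The HG-NC libraries make up the mean they are compared with, so they lie close to it by construction. Their spread is therefore not a measure to judge the HG-OE values by. Of the marker lists, 13 of 14 liver genes (all but SERPINA1) and all 10 squamous genes were also highest in HG-OE replicate 3, and their part in the values of the sterol genes was not tested. For INSIG1, INSIG2, NPC2, SQLE, NSDHL and STARD4 the log2 fold change without this library differed from that with it by at most 0.06.

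**Figure D3:**
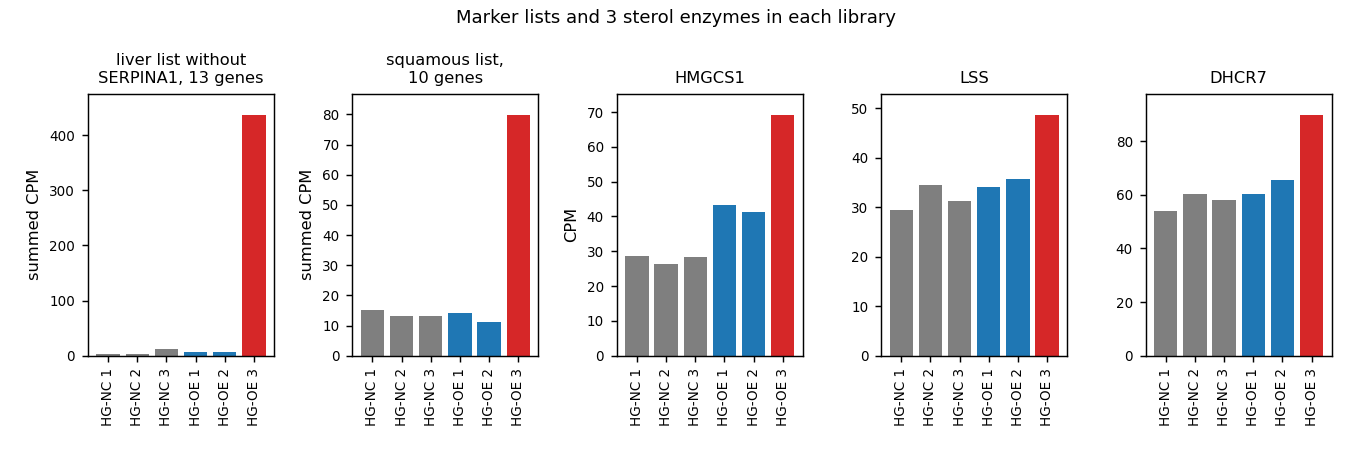
Bars give, for each of the 6 libraries, the summed CPM of 13 genes of the liver list (without SERPINA1, set apart after its values were seen) and of the squamous list, and the CPM of HMGCS1, LSS and DHCR7, with each vertical axis starting at 0. All 5 quantities are highest in HG-OE replicate 3 (red), at 436 and 79.7 summed CPM and at 69.1, 48.6 and 89.6 CPM. Among the members tested, these enzymes had the largest ratios of this library to the mean of the other HG-OE libraries (1.63, 1.39 and 1.43), so their peak there is not a separate result. Of the 19 enzymes, 15 lay above both other HG-OE libraries in it, but the ratio was only 1.01 for SQLE and NSDHL and was 0.853 for HSD17B7.

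Each member was also set beside the median change of well-counted genes up to 10 Mb away. SCAP, on chromosome 3, had 170 such neighbours with a median of 0.54, and relative to them its log2 fold change was -0.31. SREBF2, on chromosome 22, had 165 neighbours with a median of 0.32 and went to -0.11. MSMO1 went from -0.35 to -0.056 and INSIG2 from -0.37 to -0.11, since their neighbours had medians of -0.30 and -0.26. INSIG1 lay among neighbours with a median of 0.19, so that its fall was larger relative to them, at -0.80. SQLE likewise went from 0.33 to 0.47. HMGCS1 and NPC2, at 0.86 and 0.53 relative to their neighbours, stayed within 1.5 times of their own values. In all, removing the neighbours moved 9 of the 19 called members by over 1.5 times, NSDHL (0.21), TM7SF2 (0.37), DHCR7 (0.12), FDFT1 (0.11) and NR1H2 (-0.095) being the other five. These relative values have no test, and the part of the surrounding genes in the members' values was not tested.

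Levels of different genes were compared by FPKM, which divides by gene length. In HG-NC, NPC2 had the highest level, 64.1 ± 2.02 FPKM (SD, n = 3), followed by EBP at 37.6 ± 0.251, PMVK at 37.5 ± 2.60, ACAT2 at 36.6 ± 0.512 and FDPS at 32.9 ± 0.545 FPKM. The HG-NC values of EBP overlapped with those of PMVK, and those of PMVK with ACAT2, as did 15 of the 32 adjacent pairs in the order of all 33 genes. At the low end, TM7SF2, MVK and NR1H3 were at 1.47 ± 0.121, 1.42 ± 0.0802 and 1.32 ± 0.0265 FPKM, and ABCG1 was at 0.00333 FPKM. The genes that rose were spread over this order, from NPC2 at the top to NR1H3 near the bottom, with HMGCS1 at 3.75 ± 0.167 FPKM in HG-NC and 6.85 ± 2.06 FPKM in HG-OE. INSIG1, at 19.9 ± 0.873 FPKM in HG-NC, was above INSIG2 at 10.1 ± 0.300 FPKM, and in HG-OE the means were 12.9 ± 0.906 and 7.69 ± 0.384 FPKM. The gene of SREBP-2 was at 9.19 ± 0.497 FPKM and that of SREBP-1 at 6.24 ± 0.391 FPKM in HG-NC.

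**Figure D4:**
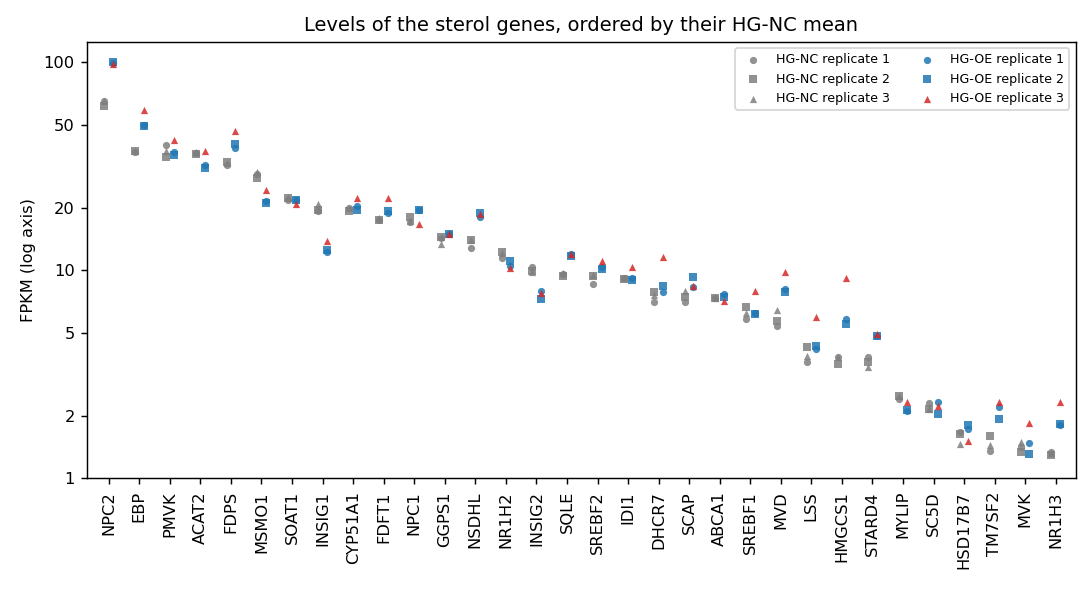
FPKM of 32 members in each library on a log axis, ordered by the mean of the 3 HG-NC libraries; grey points are HG-NC, blue points HG-OE replicates 1 and 2 and red points HG-OE replicate 3, and ABCG1 is left out since it was at 0 in some libraries. Levels run from 64.1 FPKM for NPC2 to 1.32 FPKM for NR1H3 in the HG-NC means.

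Other genes of sterol and isoprenoid metabolism were counted by lists, and each gene named here passed the test. The counts are to be read beside the 25.9% of all genes that were higher and the 25.9% that were lower. Of 8 genes of SREBP processing and sterol sensing, 3 (37.5%) were higher and 3 (37.5%) lower, with PAQR3, which tethers SCAP in the Golgi, at -0.35 and ERLIN1 at -0.25 on the log2 scale. Of 13 genes of the branch that uses isoprenoids outside sterols, 2 (15.4%) were higher and 4 (30.8%) lower, led by NUS1 (-0.52) and DHDDS (-0.31), which form the enzyme for dolichol, and RABGGTB (-0.45), a subunit of the Rab prenyltransferase. Of 12 tested genes of 17 for other sterol transport and storage, 4 were higher and 2 lower, with the phospholipid transfer protein PLTP at 0.94, the cholesteryl ester hydrolase NCEH1 at -0.57 and the lysosomal lipase LIPA at 0.31. Of 3 tested genes of 5 for oxysterols and bile acids, CYP27A1, a mitochondrial sterol hydroxylase, was higher (0.88). Of 9 SREBP targets of fatty acid synthesis, 4 were higher and 1 lower. Among these, FADS2 had a log2 fold change of 1.38 that was -0.013 without HG-OE replicate 3, FASN went from 0.48 to 0.16, and FADS1 from 0.44 to 0.40. Relative to the surrounding genes, PAQR3 went to -0.012, NUS1 to -0.12, DHDDS to -0.19, RABGGTB to -0.29 and NCEH1 to -0.25, while ERLIN1, PLTP, LIPA and CYP27A1 were at -0.30, 0.79, 0.35 and 1.08. FADS1 went to 0.22.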

How the data were processed

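RNA-seq was analysed for 3 HG-NC and 3 HG-OE libraries of HK-2 cells. After trimming, the authors placed the reads on GRCh38 by HISAT2 and counted those mapped uniquely to each gene. The deposited counts are whole numbers and are not scaled to a common library size. The deposited FPKM values are the authors' own, from the same reads. ComBat_seq is named in the study's methods, but no batches are given, and whether it touched the counts is not stated in the sources used here. The libraries of a group differed by more than sampling noise, and all were kept. The chi-square per degree of freedom was 9.13 and 8.84 between HG-OE replicate 3 and HG-OE replicates 1 and 2. It was 2.13 to 3.47 for the other pairs within a group.

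Counts were normalized by TMM and compared with edgeR 4.0.16 (R 4.3.3, quasi-likelihood test, default filter, Benjamini-Hochberg adjustment over 17142 genes, adjusted p under 0.05). The biological coefficient of variation was 0.0683. With 3 libraries against 3, an exact permutation test cannot go below p = 0.1, and non-overlap is given in its place. DESeq2 1.42.0, limma 3.58.1 on log2(FPKM + 1), glmTreat, other filters, left-out libraries, the replicate number as a block, a shorter promoter window and the removal of the median of neighbours within 10 Mb (at least 10 neighbours with a mean of at least 100 counts) were alternatives. Some of these fits, but not all, were tested on simulated data. The members, gene lists, markers and alternatives were chosen with earlier results of these data known. All 33 members are named, with up to 3 genes per other list: those of largest absolute log2 fold change among genes past the threshold with a mean of at least 100 counts. A gene that this rule also names is not reported here. Positions come from GENCODE release 44 and promoters from RefSeq (GRCh38.p14). Intervals and limits of 0 counts cover counting error only. The mannitol libraries were not analysed here.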

Additional observations from a re-analysis of the deposited data

How the results depend on the processing

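Under 15 other settings with a test, 11 of the 19 called members kept their call in each, and 14 kept it in each apart from glmTreat. The exceptions outside glmTreat were LSS, DHCR7, FDFT1, SCAP and NR1H2. Against a fold of 1.2 (glmTreat), 9 members were higher and 2 lower. The called members that did not pass it were SQLE, MSMO1, SREBF2, LSS, DHCR7, FDFT1, SCAP and NR1H2. In the other settings 11 to 16 members were higher and 3 to 5 lower. With each library left out in turn, 13 to 15 members were higher, 3 to 5 lower, and 0 to 1 rose 2-fold, HMGCS1 at 1.02 without HG-OE replicate 2; the members' median log2 fold change was 0.13 to 0.19. With the replicate block, 15 members were higher and 4 lower with a median of 0.13. Same-numbered libraries did not deviate together (correlations -0.0273, 0.0301 and -0.000993), and not every library correlated best with its own number, so the numbers were not taken as pairs. Of the 13 members not called, GGPS1 passed with at least 10 counts in every library, and ACAT2 and NPC1 without HG-OE replicate 3. The sign of SC5D turned without the low-count filter (-0.00084), with limma on log2(FPKM + 1) (-0.0022, with or without its filter) and on log2(FPKM + 0.1) (-0.0035), and ranged from -0.024 to 0.061 with a library left out; MVK and PMVK ranged from -0.0055 to 0.25 and from -0.023 to 0.11. Relative to neighbouring genes, the sign of the called members SREBF2 (-0.11) and SCAP (-0.31) turned. Among members not called, it turned for ACAT2 (0.23), PMVK (-0.057), CYP51A1 (-0.016), SOAT1 (0.027) and ABCA1 (-0.031). No count of calls was made there. In the last 150 bases before the start, CCAAT was in 17 members, CACGTG in 4 and TCACNCCAC in 1. Apart from the construction of each alternative, the causes were not tested. Depth limits ABCG1, with at most 12 counts in a library.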
